A study of Mus musculus with 6 samples.

Results

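ADAM proteases are membrane-anchored metalloproteinases that cut the extracellular parts off other membrane proteins, a process called ectodomain shedding. ADAMTS proteases are their secreted relatives, which carry thrombospondin repeats and cut proteoglycans of the extracellular matrix. In the liver both families are known from work on fibrosis, where hepatic stellate cells, the vitamin A storing pericytes that become matrix-producing myofibroblasts after injury, are one source of them. The 10 genes described here are Adam8, Adam9, Adam10, Adam12, Adam15, Adam17, Adam19, Adamts1, Adamts4 and Adamts5. They were chosen by name, and each was read from every probe set that the platform annotation gives to that symbol alone. This gave 24 of the 45037 probe sets that are not controls, for 10 of 18193 genes, and 0 probe sets were left out for naming a second gene.

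RNA of mouse hepatic stellate cells was measured on Affymetrix arrays in 2 groups of 3 samples. Senescent cells, whose treatment is labelled as control and which are described as expressing p53, were set against proliferating cells, which received doxycycline at 1 ug/ml and are described as having p53 knocked down. Both groups had the C57Bl/6 background and carried CMV-rtTA;TRE-GFP-shRNA.p53.1224, in which a transactivator made from the CMV promoter turns on a hairpin against p53 and a green fluorescent protein when doxycycline is present. Doxycycline, the hairpin and the growth state therefore differ together and cannot be told apart. The p53 transcript itself is not analysed here. The labels give neither the animals' age nor whether a group's 3 samples stem from different animals or cultures. The p-values therefore describe no more than the variation among these 6 samples, and that may be technical.

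The values are log2 expression levels from RMA (robust multi-array average), a method that gives all arrays the same distribution, so each change is relative to the bulk of the genes. Array medians lay between 6.15 and 6.19 log2 units, and the number of arrays limits the precision. Over all probe sets, arrays correlated at 0.995 to 0.997 within a group and at 0.989 to 0.992 between groups, as a description, since genes are not replicates. Proliferating replicate 1 stood apart on the second principal component, at 28.6 against -22.1 to 11.7 for the other arrays. Senescent cells had more RNA of the cell cycle inhibitor gene Cdkn1a (log2 change 1.74). They had less of the proliferation marker Mki67 (-0.64) and of Lmnb1, which encodes lamin B1 (-1.02). Mki67 averaged 11.66 in senescent cells and 12.30 in proliferating cells, well above background in both. Since p53 knockdown differs along with growth state, these levels go with the labels but do not check growth state on its own. Of 20 stellate cell markers, 16 lay above background on average, among them Col1a2 and Vim, while Lrat, Reln and Gfap, genes of quiescent stellate cells, were below it on every array. Of the 20, 1 rose, Timp1, and 7 fell, among them the receptor genes Pdgfra (-2.09) and Pdgfrb (-1.30) and the collagen gene Col3a1 (-0.93). Together 40.0% were called, against 15.8% of all genes. Summed log2 levels of these markers ran over 205.9 to 206.9 on senescent arrays and 211.9 to 213.2 on proliferating arrays, without overlap, and their part in the results on the proteases was not tested. Background was set at 5.57 log2 units, a level that 95% of 44 probe sets for olfactory receptors stay under. All 10 mesothelial markers were above background on average, with 3 higher and 3 lower in senescent cells (60.0% called). The brightest were Upk1b (13.33 in senescent and 12.90 in proliferating cells) and Upk3b (12.42 and 12.61). Summed log2 levels of this list ran over 97.36 to 97.92 on senescent arrays and 98.31 to 99.53 on proliferating arrays. The part of mesothelial RNA in the results on the proteases was not tested. In these bulk samples fewer cells of a type and less RNA per cell cannot be told apart.

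The comparison asks which of these proteases differ in RNA level between senescent and proliferating stellate cells. Of the 10 genes, each read from its brightest probe set, 2 rose and 3 fell in senescent cells. A call needed limma's p, adjusted over all probe sets by Benjamini-Hochberg, to be under 0.05. Adam8 and Adam19 rose, and Adam12, Adamts4 and Adam17 fell. By the same rule 15.8% of all genes were called, 7.6% as higher and 8.22% as lower. Of the 24 probe sets 5 were called higher and 5 lower, against 5.99% and 6.39% of all probe sets, 12.4% together. The median size of the log2 change was 0.52 over the 10 genes and 0.13 over all genes, and the median change itself was -0.20 over the 10 genes and -0.0018 over all genes. For 9 of the 10 genes the values of senescent and proliferating arrays were fully apart, against 37.0% of all genes, and for 16 of the 24 probe sets, against 31.0% of all probe sets. All 10 brightest probe sets were above background on every array, so no gene was lost to a filter. Of all 18193 genes 12500 had means above background, so the shares and medians over all genes include dim genes. When only probe sets above background were fitted, 1596 of the 12500 genes were called higher and 1831 lower. Together these were 3427 genes, a larger share than the 15.8% of all genes. Shares of the related lists below are set against all genes, dim ones included. The 10 genes had the same calls in the fit above background. Only Adam12 among the called genes changed by 2-fold or more. With arrays scaled to spike-in controls 0 of the 10 genes were called higher and 7 lower. On that scale 165 of all 18193 genes were called higher and 14743 lower. Counts on that scale given below for lists of genes are to be read beside those of all genes.

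**Figure D1:**
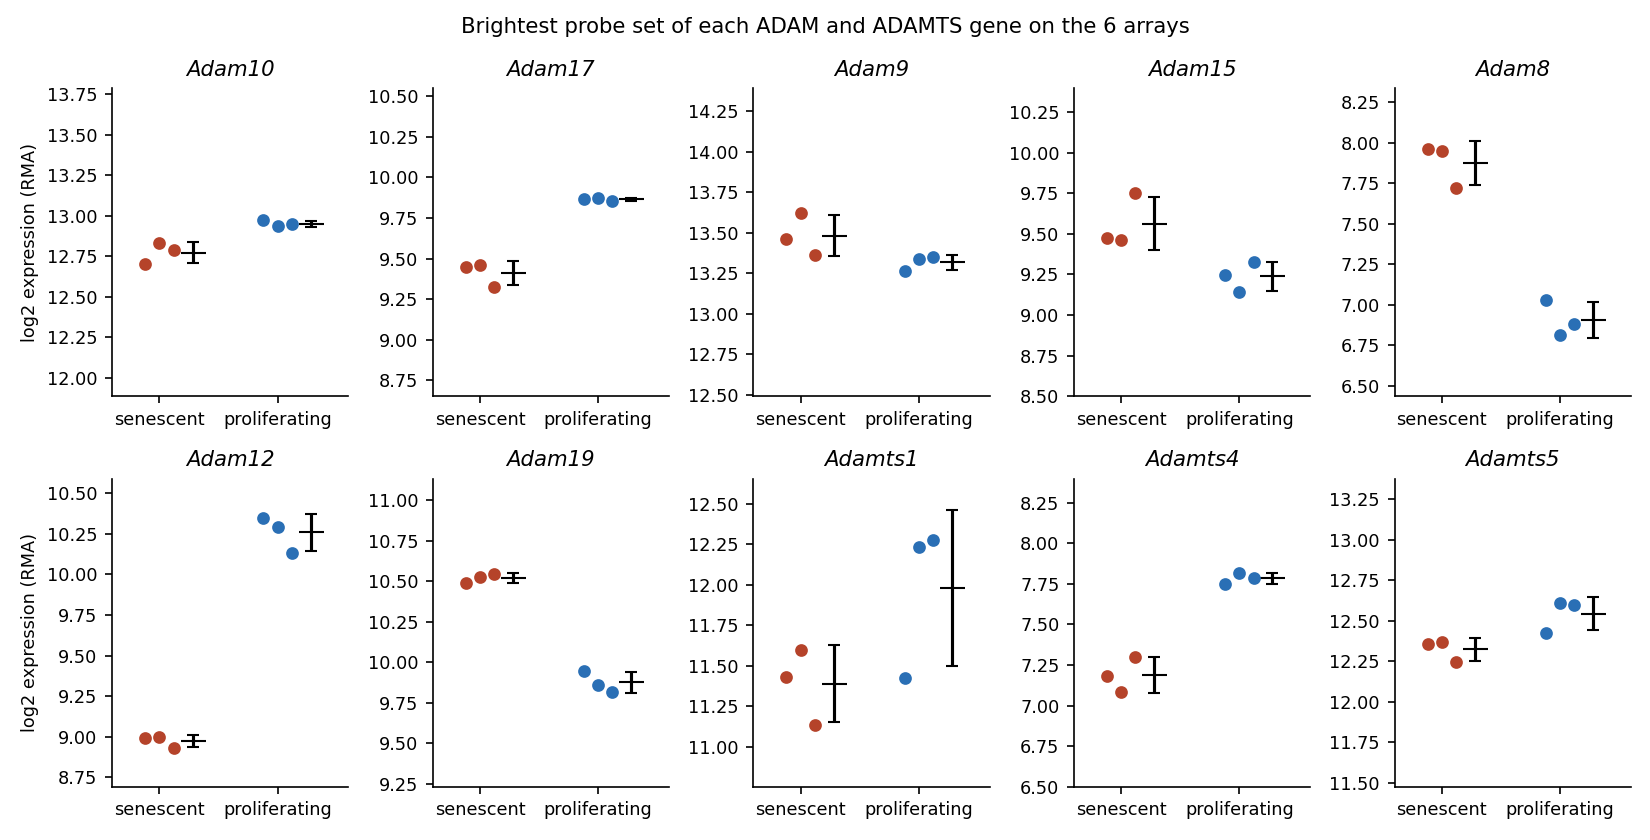
Log2 expression of the brightest probe set of each of the 10 genes on the 6 arrays. Points are arrays, senescent on the left and proliferating on the right of each panel, and the bar beside them is the mean with the SD of 3 arrays. All panels span the same number of log2 units, and the groups overlap only for Adamts1, where proliferating replicate 1 lies at 11.42.

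Adam12 encodes meltrin alpha, a protease with a role in muscle cell fusion that can also cut insulin-like growth factor binding proteins and heparin-binding EGF. It fell most of the 10 genes. Its brightest probe set, 1421172_at (Entrez gene 11489), read 8.99, 9.0 and 8.93 log2 units on the senescent arrays, against 10.35, 10.30 and 10.13 on the proliferating arrays. Every senescent value lay more than a log2 unit below every proliferating value. The log2 change was -1.29 ± 0.08 (SE, n = 3 per group), 2.44-fold lower in senescent cells, with an adjusted p of 1.28e-04 (limma). The second probe set, 1421171_at, read 6.29, 6.32 and 6.08 in senescent cells and 7.47, 7.29 and 7.40 in proliferating cells. It gave a change of -1.15 ± 0.09 (adjusted p = 3.31e-04, limma), so both probe sets of the gene were lower by similar amounts. The known growth factor binding substrates Igfbp3 and Igfbp5 were not called, with log2 changes of 0.34 (95% interval -0.22 to 0.90) and 0.07 (-0.16 to 0.29).

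Adam19, which encodes meltrin beta, a protease known to process neuregulins, changed in the opposite direction from Adam12 in these values. Probe set 1418402_at (Entrez gene 11492) read 10.49, 10.52 and 10.55 log2 units in senescent cells, against 9.95, 9.86 and 9.82 in proliferating cells. The groups were apart by several times the spread within either. The log2 change was 0.64 ± 0.07 (SE, n = 3 per group), 1.56-fold higher in senescent cells (adjusted p = 0.00153, limma), and it shrank to 0.05 with arrays scaled to spike-in controls. The other probe set, 1418403_at, gave 0.68 ± 0.14 (adjusted p = 0.0190, limma), a call that ended without senescent replicate 1 (0.56) or senescent replicate 2 (0.70).

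Adam8 encodes a protease best known from leukocytes, where it was found in macrophages. Its only probe set, 1416871_at (Entrez gene 11501), read 7.96, 7.95 and 7.72 log2 units in senescent cells and 7.03, 6.81 and 6.88 in proliferating cells. It had the largest rise of the 10 genes, 0.97 ± 0.10 (SE, n = 3 per group) on the log2 scale or 1.96-fold (adjusted p = 8.70e-04, limma). Scaled to spike-in controls it was still higher, by 0.37, but not called (adjusted p = 0.0859, limma). Since macrophages make Adam8, the macrophage markers are given beside it. Of 18 measured, 1 rose, the receptor gene Csf1r by 0.35, and 0 fell (5.56% called, against 15.8% of all genes). Summed over the list, the log2 levels ran over 97.5 to 98.6 on the senescent arrays and 95.4 to 97.2 on the proliferating arrays, without overlap. This was not particular to macrophage markers. Sums of endothelial and smooth muscle markers were also higher on all senescent arrays, and those of stellate, biliary and mesothelial markers lower. Sums of hepatocyte, lymphocyte and neutrophil markers overlapped. The macrophage sum includes genes that read below background. Of the list 8 genes had means above background, led by Cd14, with 8.99 in senescent cells and 9.17 in proliferating cells (not called), and Csf1r. The other 10 were below background on every array, among them Ptprc, Adgre1, Itgam and the C1q genes. Cd68, which was not called, read 6.22, 6.17 and 5.87 in senescent cells and 5.64, 5.23 and 5.97 in proliferating cells. The part of macrophage RNA in the change of Adam8 was not tested.

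Adam17 and Adam10 encode the main sheddases of most cells. ADAM17, also called TACE, releases tumour necrosis factor and ligands of the EGF receptor, and ADAM10 cuts Notch receptors and cadherins. Probe set 1421858_at of Adam17 (Entrez gene 11491) read 9.45, 9.46 and 9.33 log2 units in senescent cells, against 9.87, 9.87 and 9.86 in proliferating cells. All 3 senescent arrays lay below all 3 proliferating arrays, which were nearly alike. The log2 change was -0.45 ± 0.07 (SE, n = 3 per group), 1.37-fold lower in senescent cells (adjusted p = 0.00691, limma). The gene's other 2 probe sets gave -0.33 and -0.21 and were not called (adjusted p of 0.120 and 0.227, limma), so the call rests on 1 of 3 probe sets that all had the same sign. Averaged over its probe sets the gene gave -0.33 and was still called.

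Adam10 (Entrez gene 11487) was not called by any of its 4 probe sets. The brightest, 1428103_at, read 12.70, 12.83 and 12.79 log2 units in senescent cells and 12.97, 12.94 and 12.95 in proliferating cells. The values did not overlap, but the difference was small, -0.18 with a 95% interval of -0.35 to -0.01 (adjusted p = 0.179, limma). The other 3 gave -0.29, -0.24 and -0.05. The dimmest of these, 1460083_at, had 1 proliferating array below background.

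Adam9 and Adam15 encode broadly expressed ADAMs of the cell surface with reported sheddase activity. Adam9, with 1 probe set, read 13.46, 13.62 and 13.36 log2 units in senescent cells and 13.26, 13.34 and 13.35 in proliferating cells. Senescent replicate 3 and proliferating replicate 3 lay side by side, and the change of 0.16 (95% interval -0.04 to 0.37) was not called (adjusted p = 0.303, limma). It turned to -0.43 with arrays scaled to spike-in controls. Adam15 (Entrez gene 11490) has 4 probe sets, all with positive changes, of which 1425170_a_at alone stayed positive under that scaling. Its brightest probe set, 1438760_x_at, read 9.48, 9.46 and 9.75 in senescent cells and 9.25, 9.14 and 9.32 in proliferating cells, a change of 0.33 ± 0.10 that missed the threshold (adjusted p = 0.0817, limma). Its type can bind related transcripts. Probe sets 1425170_a_at and 1416080_at were called, with changes of 0.64 ± 0.11 and 0.45 ± 0.10 (adjusted p of 0.00774 and 0.0192, limma). The second of these calls ended without senescent replicate 3 (0.38), proliferating replicate 2 (0.40) or proliferating replicate 3 (0.44). The last, 1454206_a_at, gave 0.18 (adjusted p = 0.311, limma). The gene was thus called by 2 of 4 probe sets, and also when its probe sets were averaged (0.40, adjusted p = 0.00638, limma).

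**Figure D2:**
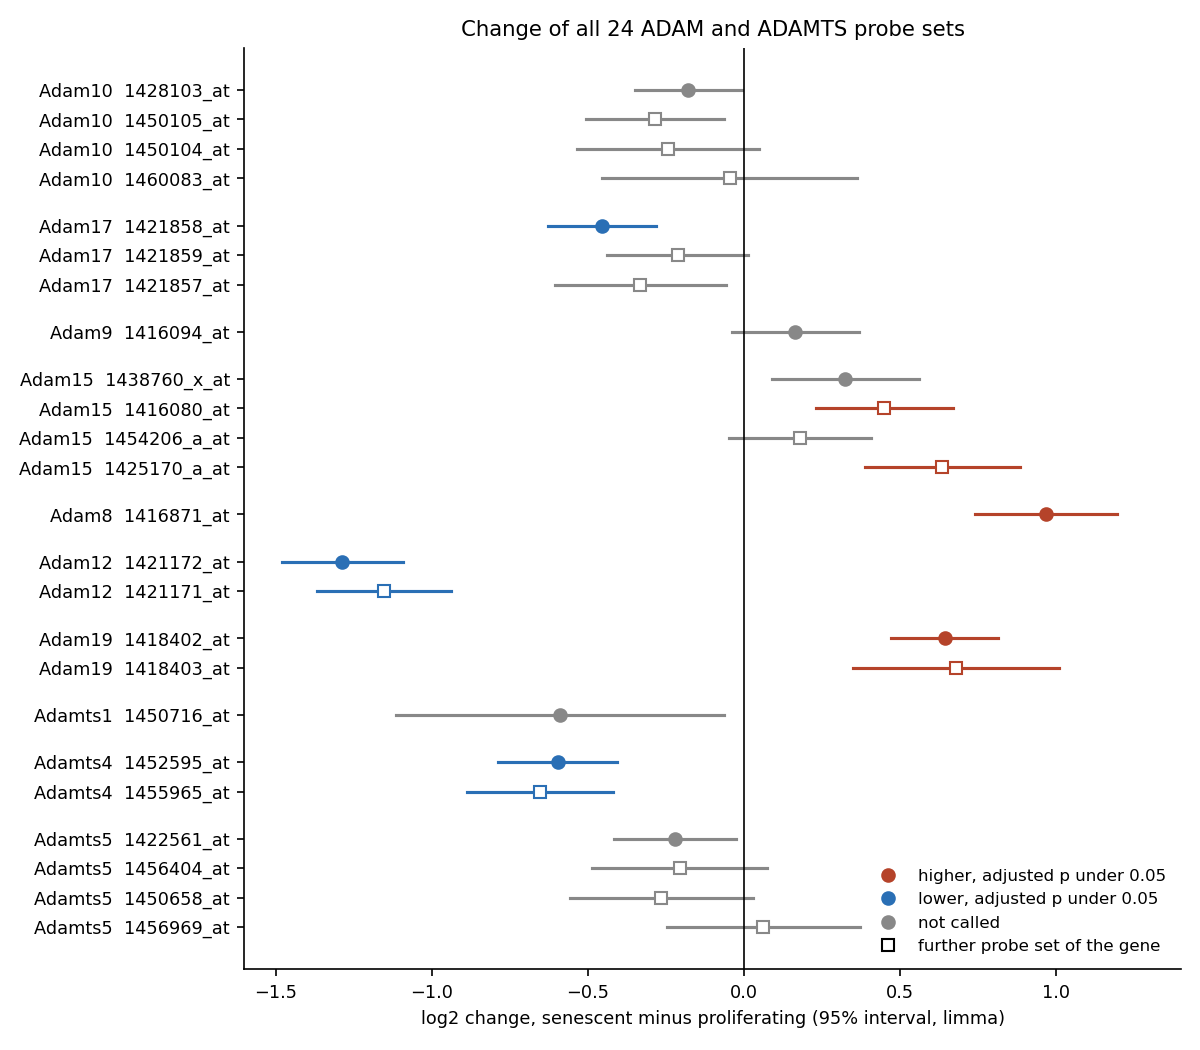
Log2 change, senescent minus proliferating, of all 24 probe sets with the 95% interval from limma, grouped by gene. Filled circles are the brightest probe set of a gene and open squares its further probe sets, red where called higher, blue where called lower and grey where not called. Only Adamts5 has probe sets on both sides of 0, and its positive one was below background on every array. Scaled to spike-in controls, all values would lie 0.60 further to the left.

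Adamts4 and Adamts5 encode the aggrecanases, enzymes that cut the large proteoglycans aggrecan and versican, and Adamts1 encodes a related protease that also cuts versican. Adamts4 fell in both of its probe sets. Probe set 1452595_at (Entrez gene 240913) read 7.19, 7.08 and 7.30 log2 units in senescent cells, against 7.75, 7.82 and 7.79 in proliferating cells. The groups did not overlap, and the log2 change was -0.60 ± 0.08 (SE, n = 3 per group), 1.51-fold lower (adjusted p = 0.00333, limma). The dimmer probe set, 1455965_at, gave -0.65 ± 0.10 (adjusted p = 0.00528, limma), with 2 senescent arrays below background.

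Adamts1 had the widest spread of the 10 genes. Its only probe set, 1450716_at (Entrez gene 11504), read 11.43, 11.60 and 11.13 log2 units in senescent cells and 11.42, 12.23 and 12.27 in proliferating cells. Proliferating replicate 1 lay among the senescent arrays, and the other 2 proliferating arrays lay above all of them. The change of -0.59 ± 0.23 was not called (adjusted p = 0.148, limma). Without proliferating replicate 1 it was -0.87 and was called (adjusted p = 0.00835, limma). This is the array that stands apart on the second principal component.

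Adamts5 (Entrez gene 23794) has 4 probe sets. The brightest, 1422561_at, read 12.36, 12.37 and 12.24 in senescent cells and 12.43, 12.61 and 12.59 in proliferating cells, a change of -0.22 with a 95% interval of -0.41 to -0.03 (adjusted p = 0.145, limma). Proliferating replicate 1 was the lowest of its group in this and in the other 2 probe sets above background, which gave -0.26 and -0.21. None of them was called with or without that array. Probe set 1456969_at was below background on every array. Adamts1 and Adamts5 lie on the same chromosome with 1 annotated gene, not a protein-coding one, between them in the RefSeq gene table.

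Related genes were then compared within each array, as the log2 difference between their brightest probe sets. The size of such a difference depends on the probes, so only its shift between groups is read. Adam12 minus Adam19 read -1.50, -1.53 and -1.62 on the senescent arrays and 0.40, 0.43 and 0.32 on the proliferating arrays, a shift of -1.93. No pair could pass a threshold of 0.05, because the exact two-sided permutation test of 3 arrays against 3 cannot give less than 0.1, which it gave here (0.167 adjusted over 5 pairs). Adam10 minus Adam17 shifted by 0.28, at 3.25, 3.37 and 3.46 in senescent cells against 3.11, 3.06 and 3.09 in proliferating cells, with the same p. It was 0.14 with the probe sets of each gene averaged. Adamts4 minus Adamts5 shifted by -0.38, again without overlap and with the same p. Adam9 minus Adam15 (-0.16, exact p = 0.4) and Adamts1 minus Adamts5 (-0.37, exact p = 0.3) overlapped between the groups.

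**Figure D3:**
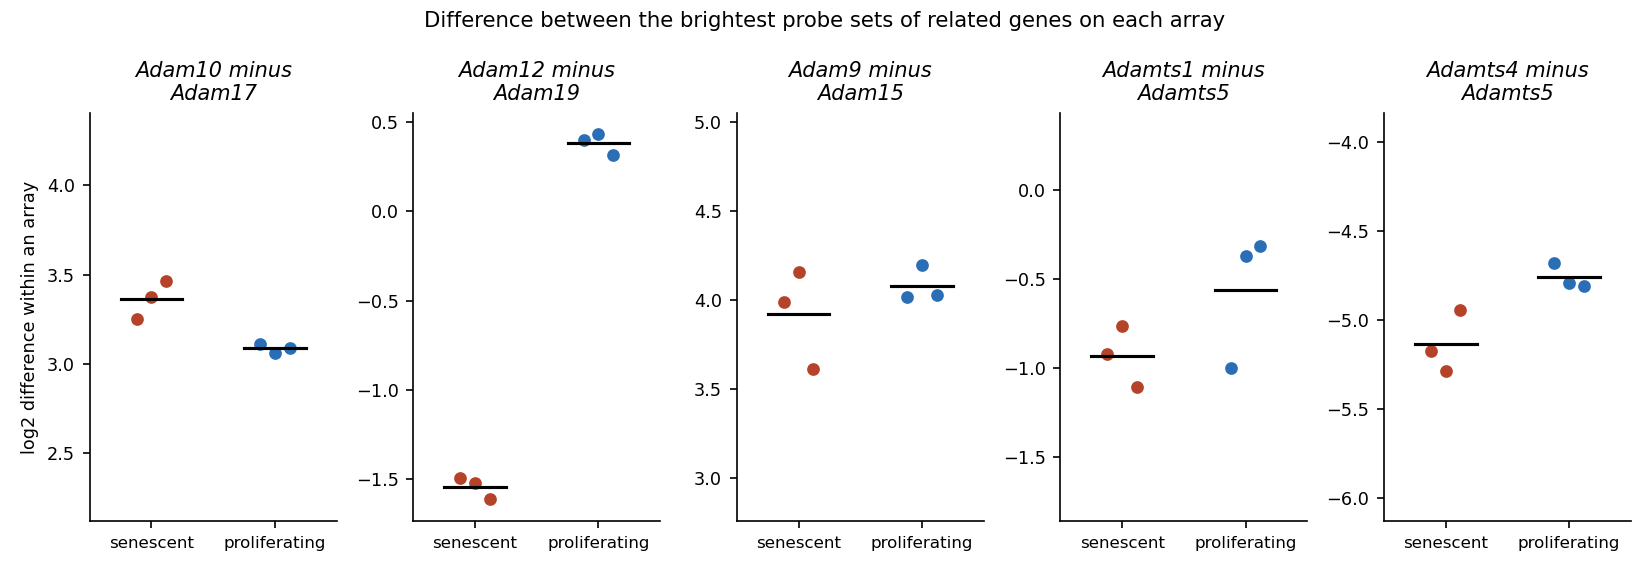
Log2 difference between the brightest probe sets of 5 pairs of related genes within each array, senescent on the left and proliferating on the right, with the mean as a bar. All panels span the same number of log2 units. Adam12 minus Adam19 shifts by -1.93 and the other pairs by -0.38 to 0.28.

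By a fixed measure of likeness, the root mean square difference of centred log2 values over the 6 arrays, the genes closest to Adam8 were Rora, Cd44, Cited2, Thbs1 and Cd59a, at 0.06 to 0.07 log2 units. Closest to Adam12 were Sema6d, Emilin1, Tle2, Idh2 and Pdzrn3, at 0.05 to 0.10. Their log2 changes ran over 0.88 to 0.99 for the first set and -1.28 to -1.20 for the second. These are descriptions over 2 groups of 3 arrays.

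Start sequences show what lies around the first bases of the called members. RefSeq's promoter table of build GRCm38.p6, with 250 bases before and 50 after a start, held 6 of the 10 genes with 8 starts, and Adam12 and Adamts4 were not among them. The called members it held are Adam8, Adam17 and Adam19, and 1 start of each is shown, 5′ to 3′ on the gene's strand. Capitals mark matches, on either strand, to the GC box GGGCGG, bound by Sp1, and to the AP-1 motif TGANTCA. Adam8 is at chr7:139992513-139992812 (minus strand), Adam17 at chr12:21373583-21373882 (minus strand) and Adam19 at chr11:46055734-46056033 (plus strand).
Adam8: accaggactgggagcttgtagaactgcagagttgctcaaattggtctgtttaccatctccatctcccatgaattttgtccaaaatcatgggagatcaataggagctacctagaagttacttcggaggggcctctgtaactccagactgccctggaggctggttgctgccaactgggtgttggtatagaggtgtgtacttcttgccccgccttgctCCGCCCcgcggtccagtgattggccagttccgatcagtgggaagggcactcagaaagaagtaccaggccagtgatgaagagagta
Adam17: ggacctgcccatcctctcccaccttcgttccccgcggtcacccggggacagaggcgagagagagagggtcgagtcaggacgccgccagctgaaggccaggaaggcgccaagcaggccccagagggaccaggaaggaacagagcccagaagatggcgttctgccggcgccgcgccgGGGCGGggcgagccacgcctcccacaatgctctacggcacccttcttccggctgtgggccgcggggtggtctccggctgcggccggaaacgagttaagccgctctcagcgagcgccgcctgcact
Adam19: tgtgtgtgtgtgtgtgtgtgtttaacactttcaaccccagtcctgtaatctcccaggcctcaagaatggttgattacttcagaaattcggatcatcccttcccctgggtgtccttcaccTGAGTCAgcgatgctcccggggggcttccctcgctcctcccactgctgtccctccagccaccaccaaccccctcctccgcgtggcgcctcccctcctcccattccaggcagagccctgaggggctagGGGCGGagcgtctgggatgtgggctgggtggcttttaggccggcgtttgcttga
Each of the 3 holds 1 GC box, which 35.7% of the table's 32851 promoters hold in at least 1 copy. The Adam19 start holds 1 AP-1 match, as do 7.81% of all promoters, and the gene's other 2 starts hold neither motif. GC content was 52.3% for Adam8, 70.0% for Adam17 and 60.3% for the Adam19 start, against a median of 52.7% over all promoters. None of the 8 starts held a p53 half-site, which 8.36% of all promoters hold, and only the Adamts1 start held the TATA box TATAAA, found in 13.6%. The ETS motif CCGGAAG, held by 8.86%, matched the starts of Adam15 and Adam17. The motifs do not overlap each other in the printed starts, and a match in the letters says nothing of binding.

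Of 22 further ADAM genes measured, 6 had means above background and 15 were below it on every array, among them genes known from the testis. Adam23, which lacks protease activity, was called lower (-0.70 ± 0.15, adjusted p = 0.0196, limma) in 1 of 3 probe sets, a call that ended without any 1 senescent array and with its probe sets averaged (-0.29). Adam33 and Adam4 were the brightest not called, with -0.24 and -0.08, though the dimmer of the 2 probe sets of Adam33 was called lower (-0.47). Of 18 further ADAMTS and ADAMTS-like genes, 12 had means above background and 6 were below it on every array. Of the 18, 2 rose and 4 fell (33.3% called, against 15.8% of all genes), and with scaling to spike-in controls 0 rose and 13 fell. Adamts9, another protease that cuts versican, was 2.03-fold lower in senescent cells, at 8.64, 8.74 and 8.59 against 9.81, 9.63 and 9.59 in proliferating cells (log2 change -1.02 ± 0.09, adjusted p = 4.37e-04, limma). Of its 3 probe sets 2 were called lower, and the changes ran from -1.02 to -0.25. The ADAMTS-like gene Adamtsl3 fell by 0.90 and the protease gene Adamts12 by 0.56 (1 of 2 probe sets called, -0.31 with both averaged), while Adamts20 was called lower but was below background on every array. Adamtsl4 and Adamtsl5, which encode ADAMTS-like proteins without a protease domain, rose by 0.51 and 0.44, and both turned negative when scaled to spike-in controls. The call of Adamtsl5 was kept without senescent replicate 2 and ended without any other 1 array (0.39 to 0.47). Adamts10 and Adamts6 were not called, at -0.12 and 0.07.

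The activity of ADAM10 and ADAM17 depends on partners that carry them to the cell surface, iRhoms for ADAM17 and tetraspanins for ADAM10, and on convertases that remove the inhibitory prodomain. Of 14 such genes, 3 rose and 0 fell (21.4% called, near the 15.8% of all genes), with a median change of 0.09. With scaling to spike-in controls 0 rose and 8 fell. Pcsk6, a proprotein convertase, read 10.70, 10.70 and 10.68 in senescent cells against 9.92, 10.02 and 9.98 in proliferating cells (log2 change 0.72 ± 0.07, adjusted p = 7.60e-04, limma), a call lost with that scaling (0.13). Frmd8, which stabilises the iRhom complex, rose by 0.39, and Pcsk5, another convertase, by 0.46 in its brightest probe set, a call close to the threshold (adjusted p = 0.0497, limma) that was kept without proliferating replicate 2 and ended without any other 1 array, and with its probe sets averaged (0.11). The call of Frmd8 ended without senescent replicate 1 (0.37) or proliferating replicate 2 (0.36). Frmd8 and Pcsk5 turned negative with scaling to spike-in controls. Rhbdf1, which encodes iRhom1, was not called at -0.26 (adjusted p = 0.0571, limma) but was in 7 of the other settings. Pacs2, a sorting protein, gave -0.0018.

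TIMP proteins block metalloproteinases, and TIMP3 is the one that inhibits ADAM17 and the aggrecanases. Of 7 inhibitors and clearance receptors 3 rose and 0 fell (42.9% called, against 15.8% of all genes), with a median change of 0.26. With scaling to spike-in controls 0 rose and 3 fell. Timp3 read 14.64, 14.54 and 14.54 log2 units in senescent cells against 13.85, 13.97 and 13.92 in proliferating cells (log2 change 0.66 ± 0.08, adjusted p = 0.00149, limma), and all 4 of its probe sets were called. Timp1 and Timp2 rose by 0.76 and 0.65. Lrp1, the receptor that takes up ADAMTS5 and TIMP3, and Reck, a membrane inhibitor, were not called, at 0.26 and -0.12.

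EGF family ligands are substrates that ADAMs release from the membrane. Of 9 measured, 3 rose and 0 fell (33.3% called, against 15.8% of all genes). With scaling to spike-in controls 6 of the 9 were called lower and 2 higher, Ereg (0.74) and Hbegf (0.73). Ereg, epiregulin, read 11.39, 11.51 and 11.42 in senescent cells against 10.22, 10.04 and 10.03 in proliferating cells, 2.53-fold higher (log2 change 1.34 ± 0.08, adjusted p = 1.16e-04, limma). Hbegf, heparin-binding EGF, rose 2.51-fold (1.32 ± 0.17, adjusted p = 0.00221, limma). Egf was at least 1.29-fold higher, since all proliferating arrays were below background. Nrg1 and Tgfa were not called, at -0.23 and -0.12, and the median of the list was -0.01. Of 46 other membrane substrates of ADAM10 and ADAM17, 9 rose and 10 fell (1 and 33 with scaling to spike-in controls), with a median of 0.03. That is 41.3% called, against 15.8% of all genes.

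Among these substrates Epha2, an ephrin receptor, rose by 1.07, Cd44, the hyaluronan receptor, by 0.99 and Csf1, a macrophage growth factor, by 0.55. Cdh5, an endothelial cadherin, was at least 1.12-fold higher, since all proliferating arrays were below background, so its place among the rises is not known. Only 1 of the 2 probe sets of Cdh5 was called, and the other gave -0.12. Falls included those of Met, the hepatocyte growth factor receptor, by 0.98, of Cdh11, a mesenchymal cadherin, by 0.87, and of the chemokine gene Cx3cl1 by 0.69 (2 of 4 probe sets called, -0.35 with all averaged). Tnfsf11 was at least 1.15-fold lower, a call that ended under median centring, the replicate block and 4 of 6 omissions of an array. The TNF receptors Tnfrsf1a and Tnfrsf1b, both cut by ADAM17, fell by 0.36 and 0.38, and Tnf itself averaged below background in both groups. App and Cdh2, bright substrates, were not called, at -0.0031 and 0.11.

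Of 19 matrix substrates, 3 rose and 4 fell (0 and 15 with scaling to spike-in controls), with a median of 0.03. That is 36.8% called, against 15.8% of all genes. Fmod, fibromodulin, was 3.18-fold lower in senescent cells, at 10.41, 10.55 and 10.44 against 11.89, 12.31 and 12.21 in proliferating cells (log2 change -1.67 ± 0.12, adjusted p = 1.86e-04, limma), and all 6 of its probe sets were called. Matn3, matrilin 3, fell by 1.08, Nid2, nidogen 2, by 1.01 and Dcn, decorin, by 0.75. The call of Nid2 ended without any 1 of the senescent arrays (-1.06 to -0.95). Thbs1, thrombospondin 1, rose by 0.92, Nid1, nidogen 1, by 0.87 and Fbln2, fibulin 2, by 0.50. Aggrecan's gene Acan and Bcan were below background on every array. Versican's gene Vcan, the large proteoglycan expressed here, gave 0.03 with a 95% interval of -0.22 to 0.28 (adjusted p = 0.918, limma). Bgn and Sdc4 were not called, at -0.10 and 0.11.

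**Figure D4:**
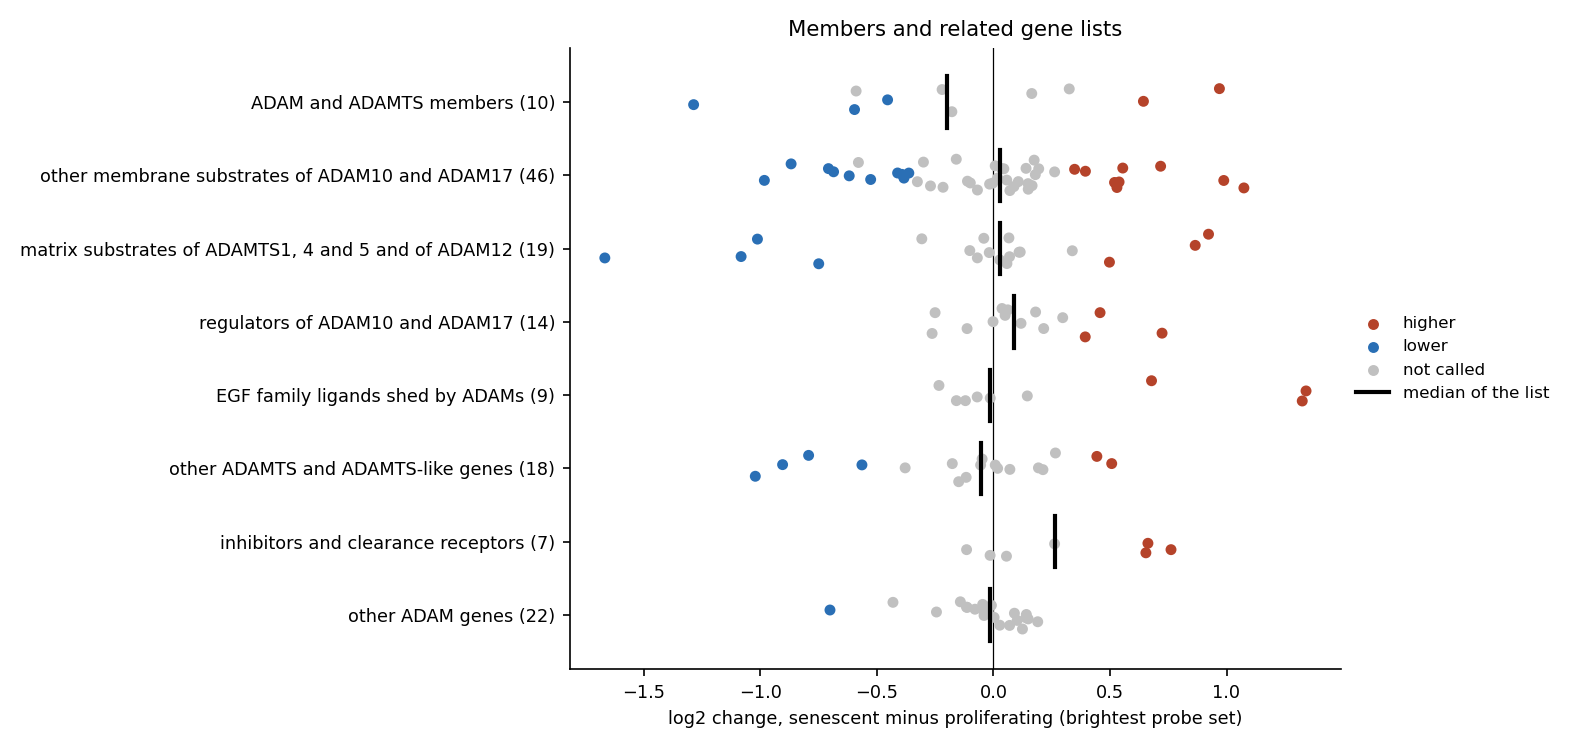
Log2 change of the brightest probe set of each gene, senescent minus proliferating, for the 10 proteases and 7 related lists, with the number of genes measured in brackets. Red points were called higher, blue lower and grey not called, and the black bar is the median of the list. Medians lie between -0.20 for the 10 proteases and 0.26 for inhibitors and clearance receptors, and scaling to spike-in controls would move all points 0.60 to the left.

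The direction of Adam9 and Adam15, neither of them called, turned with the scaling of the arrays, and the other 8 genes kept theirs. Probe sets for poly-A spike-ins, bacterial transcripts added to the RNA, averaged 11.21 log2 units on senescent arrays and 10.61 on proliferating arrays. When arrays were scaled to them, the median change of all genes was -0.60, and 1.11% of all calls were higher, against 48.0% otherwise. On that scale Adam12, Adam17, Adamts4, Adam10, Adamts1, Adamts5 and Adam9 were called lower and none of the 10 was called higher, while Adam15 turned to -0.27. The same offset is taken from all probe sets of an array, so these calls are not separate evidence on each gene. Adamts1 and Adamts4, both at -1.19, had adjusted p of 5.16e-07 and 4.37e-07 there (limma). As reported, their SEs were 0.23 and 0.08, and Adamts1 was not called. The adjusted p on the spike-in scale therefore do not reflect the spread of each gene, and counts of calls there share this limit. All statements above on rises and falls hold on the scale where most genes stay level. With any 1 array left out, Adam8, Adam12, Adam17, Adam19 and Adamts4 were all still called in the same direction.

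**Figure D5:**
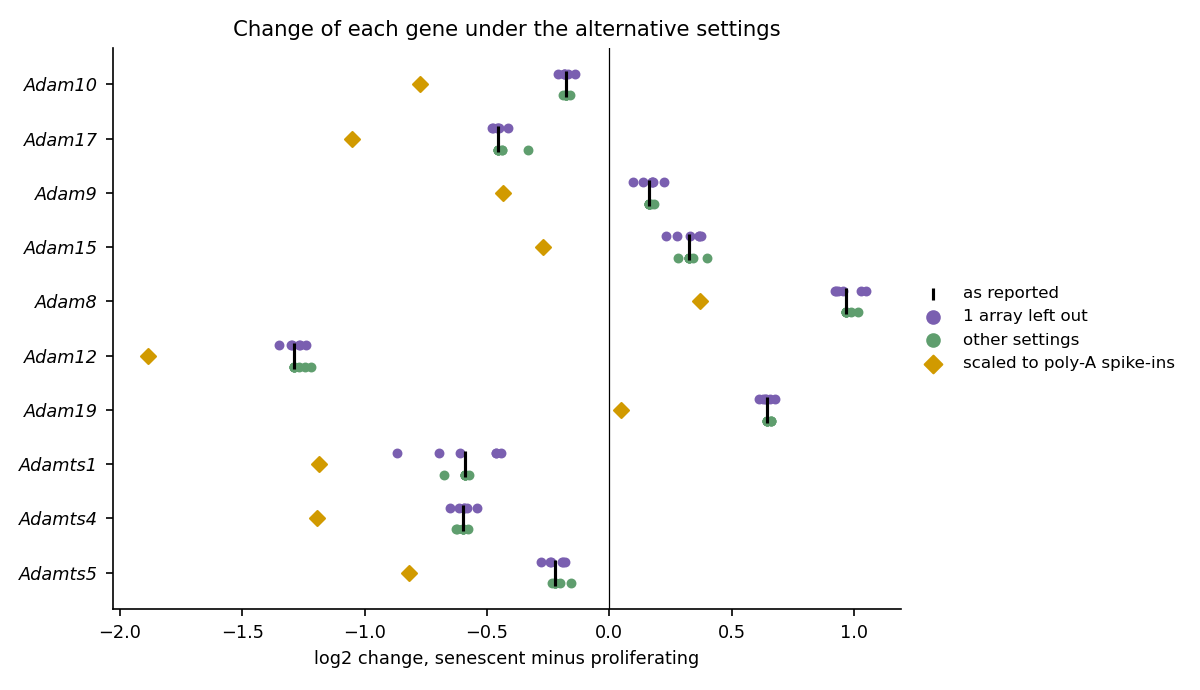
Log2 change of the brightest probe set of each gene, senescent minus proliferating, as reported (black bar), with 1 array left out (purple), under the other settings (green) and scaled to the poly-A spike-ins (yellow diamonds). Under that scaling Adam9 and Adam15 cross 0, Adam19 comes to 0.05, and Adam8 stays above 0 at 0.37. Adamts1 spreads most among the omissions of an array, from -0.87 to -0.44.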

How the data were processed

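RNA of 3 senescent and 3 proliferating samples was hybridised to Affymetrix arrays. The deposited values, 1 per probe set, are log2 levels from RMA, per the submitters' processing notes, whose version is not given in the sources used here. No batch is given. RMA removes shifts shared by most genes and can understate changes near either end of the range. Of 45101 probe sets, 64 controls were left out, and a platform table gave 34945 of the rest 1 gene, 932 several and 9160 none listed. Symbols were updated through Entrez numbers from a RefSeq table of GRCm38.p6.

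Groups were taken from sample titles. Senescent minus proliferating was fitted over all 45037 probe sets in R 4.3.3 (limma 3.58.1, lmFit and eBayes), with Benjamini-Hochberg adjustment over all of them at 0.05. Genes are counted by the probe set with the highest mean. On simulated data for this comparison (45037 probe sets) the fit recovered 35.8% of 67 changes of 0.5 log2 units, 100% of 67 of 1 and 100% of 66 of 2, with 16 false calls among 173. The real data had 5579 calls. With so few changes simulated the adjusted threshold was stricter, so these rates do not carry over to the real data. The median 95% interval was ± 0.23. Folds are bounded at 5.57 where a group is below background on all arrays. Pairs of genes were compared by an exact permutation test. Figures used matplotlib 3.10.9. Motifs were searched with exact letters.

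The 10 members, the related lists and the tests were chosen with earlier results of these data known. Named beside the members are up to 4 called genes per list and direction and the 2 brightest not called, the genes closest in pattern to the largest rise and fall, and the 2 brightest markers. Others (Igfbp3, Igfbp5, Tnfrsf1a, Tnfrsf1b, Tnf, Acan, Bcan, Vcan and single markers) were chosen after their values were seen. Same-numbered arrays were checked for pairing: their deviations from the group means correlated at 0.11, -0.11 and -0.16, so numbers were not taken as pairs. Of the marker lists, those of hepatocytes had 1 of 13 called (higher), endothelial cells 2 of 13 (higher), biliary cells 1 of 7 in each direction, smooth muscle 3 of 8 (higher), and lymphocytes (12) and neutrophils (9) 0. Over all genes 15.8% were called.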

Additional observations from a re-analysis of the deposited data

How the results depend on the processing

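With arrays left out, median centring, a replicate block, array weights, stricter filters and 1 probe set per gene, the 5 called members kept their calls and direction, and no member reversed except under poly-A spike-in scaling. With the replicate number as a block (replicate block) Adam12 was -1.29 (adjusted p = 9.68e-04, limma) and 1011 genes were higher and 1103 lower. The block changed no call of a member, and among the other genes named it ended that of Tnfsf11 (-0.71). Precision is set by 3 arrays per group, and small changes can be missed, at a rate not measured for these data.

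Poly-A spike-in scaling lowered every change by 0.60. It gave Adam8 0.37, Adam9 -0.43, Adam10 -0.77, Adam15 -0.27 (its probe sets 1416080_at -0.15 and 1454206_a_at -0.42), Adam19 0.047, Adamts1 -1.19, Adamts5 -0.82 (probe set 1456969_at -0.53), Adamts6 -0.53, Adamtsl4 -0.0891, Adamtsl5 -0.15, Cdh2 -0.49, Csf1 -0.0417, Fbln2 -0.10, Frmd8 -0.20, Lrp1 -0.33, Pcsk5 -0.14 and Sdc4 -0.48. Counts of higher and lower calls were then 0 and 7 of the 10 genes, 0 and 17 of their probe sets, 0 and 13 of other ADAMTS genes, 0 and 8 of regulators, 0 and 3 of inhibitors, 1 and 33 of membrane substrates, 0 and 15 of matrix substrates and 165 and 14743 of all genes (1382 and 1496 as reported). Lower were 21 other ADAM genes and 6 EGF ligands, of which 2 others stayed higher. Below background on every array were 15 of the 22 other ADAM genes, 6 of the 18 other ADAMTS genes and 5 of the 19 matrix substrates. These counts therefore include background readings moved by the shared shift. A robust variance trend called Adam10 (-0.18), Adam15 (0.33) and Adamts5 (-0.22), so that 5 of the 10 genes (3 as reported) and 8 of their probe sets (5 as reported) were lower. Adam15 was also called among probe sets above the median level (0.33) and with probe sets averaged (0.40), where Adam10 minus Adam17 was 0.14. Regulators called lower were 2 with 1 probe set per gene, above background, above the median level or with probe sets averaged, and 1 with the trend or array weights (0 as reported). Values near 0 changed sign: App to 0.0144 with median centring and 0.0199 with array weights, and Pacs2 to 0.0157 with centring and 0.0912 with probe sets averaged. The causes were not tested.

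With 1 array left out, Adamts1 ranged from -0.87 to -0.44, probe set 1460083_at of Adam10 from -0.23 to 0.14, 1456969_at of Adamts5 from -0.0593 to 0.21, Adam4 from -0.20 to 0.0178, Adamts6 from -0.0327 to 0.14, App from -0.0257 to 0.027, Pacs2 from -0.0421 to 0.0594 and Sdc4 from -0.0101 to 0.21. Counts ran over 0 to 2 for other ADAM genes lower, 1 to 2 for other ADAMTS genes higher, 1 to 3 for regulators higher, 6 to 12 for membrane substrates lower, 838 to 1225 for all genes higher and 895 to 1366 lower, moving by over 1.5 times without senescent replicate 1 (838 and 951), proliferating replicate 2 (882 and 992) or proliferating replicate 3 (857 and 895), and for lower genes also without senescent replicate 3 (962). Regulators fell to 1 without senescent replicate 1, and membrane substrates to 6 without senescent replicate 2 or proliferating replicate 2.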
